A study of Arabidopsis thaliana with 21 samples.

Results

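The UDP-glycosyltransferase (UGT) genes of Arabidopsis thaliana were followed in roots fixed before and during a parabolic aircraft flight. Members were all genes whose RefSeq symbol starts with UGT followed by a digit and that had a probe set paired with that gene alone, and for a gene with several such probe sets the brightest was taken. Of 58 such genes in RefSeq, 51 were measured in this way, on 56 probe sets. They stand among 16411 genes with a probe set of their own, and the tests ran over 17481 probe sets with a gene name. The other 7 genes (UGT74E2, UGT74F2, UGT75B1, UGT75B2, UGT84A1, UGT84A2 and UGT85A1) were not analysed here. The naming rule used no measured value, apart from the mean used to pick among probe sets of 1 gene. The family itself was chosen with earlier results of these data known.

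All samples were whole roots of wild-type seedlings of the Wassilewskija (WS) ecotype, 12 days old and grown under 24 h light. They were fixed with RNAlater in Kennedy Space Center fixation tubes during 1 flight of a C-9 aircraft, whose parabolas alternate hypergravity and microgravity. The 7 tubes were fixed in level flight 1 min before parabola 1 (the baseline), at the start of parabola 1, midway through parabola 1 (tube A and tube B), and after parabolas 1, 3 and 10. Each tube gave 3 arrays, labelled as replicates and derived from the roots of that tube, and the study asked how expression in the parabolic stages differs from level flight. Every stage but the midpoint was a single tube, so a stage and its tube cannot be told apart, and the p-values below measure only the spread among replicates within tubes, which may be technical.

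UGT enzymes move a sugar from a UDP-sugar onto a small molecule and so change its solubility, activity or storage. Plants use them on hormones such as auxin, cytokinin, abscisic acid and salicylic acid, on flavonoids and monolignols, and on foreign compounds. The number after UGT names a family by sequence likeness and the letter after it a subfamily, and neighbours on a chromosome are often members of 1 subfamily. Many genes of the UGT73 family are known to be induced by stress, salicylic acid or xenobiotics, and several of their enzymes glucosylate flavonoids or foreign compounds.

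The values were log2 expression values from Affymetrix AraGene 1.0 ST arrays, on which a difference of 1 is a 2-fold change. They ran from 0.69 to 13.3, and the array medians lay between 2.92 and 3.04. Only 2 of 25 listed root marker genes and 2 of 12 leaf marker genes were measured. The root beta-glucosidase PYK10 had tube means of 11.8 to 12.0, near the top of every array, and the root hair expansin EXPA7 had 3.83 to 4.17. The leaf genes LHCB4.1, of a photosynthetic antenna, and RCA, the activator of Rubisco, had tube means of 3.93 to 4.56 and 4.32 to 4.70. Both leaf genes were lowest in level flight. So was the root gene EXPA7, by a small margin (3.827, against 3.829 at the end of parabola 3), while PYK10 was not. None of these genes passed an adjusted p of 0.05 in any pairwise comparison, and their part in the results was not tested. In whole roots, fewer cells of a type and less RNA per cell cannot be told apart.

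UGT signals were spread over most of the range of the arrays. Probe sets differ in how strongly they respond to RNA, so the signals place each probe set on the array and do not rank transcripts. Averaged over the 21 arrays, the brightest members were UGT87A2, a regulator of flowering time, at 8.89, UGT73B1 at 7.77, UGT76B1 at 7.63, UGT73B4 at 7.62 and UGT73B5 at 7.43. Of the 51 genes, 23 lay above and 28 at or below the median of all named probe sets, which was 2.99. UGT78 (3 genes, which attach sugars to flavonols) and UGT84 (4 genes, which act on sinapate and auxin among other acids) lay wholly below that median, with highest means of 2.32 and 2.52.

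Differences among the 7 tubes were found in 13 of the 51 UGT genes by limma's moderated F test at a Benjamini-Hochberg adjusted p below 0.05, which is 25.5%, against 7.91% of all named probe sets. UGT73 held 7 of the 13, from 10 measured genes. The other 6 were 1 gene each of UGT72, UGT74, UGT76, UGT85, UGT87 and UGT89. None of the 10 genes of UGT71, which include enzymes for abscisic acid, passed, and neither did the 3 of UGT78, the 4 of UGT84 or the single genes of UGT80 and UGT88. In the 8 pairwise comparisons planned (6 tubes each set against level flight, the 2 midpoint tubes against each other, and the end of parabola 10 against the end of parabola 1), 36 UGT genes passed in none. A further 5 passed in 1 comparison, 4 in 2, 3 in 3 and 1 in 4 (UGT73B2), and 2 passed in 6 (UGT73D1 and UGT76B1).

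At the start of parabola 1, 11 UGT genes fell against level flight and none rose. This was 21.6% of the family, where 4.16% of all named probe sets passed in either direction and 2.76% fell. The median log2 difference was -0.080 over the 51 UGT genes and 0.0074 over all named probe sets. All 3 arrays of the parabola 1 start lay below all 3 of level flight in 14 UGT genes, against 10.9% of all named probe sets, and above them in 3 (11.4%). Leaving out 1 of the 6 arrays gave 8 to 10 falling genes. When the tube was fitted as a random block, the counts of falling genes were 6 at the parabola 1 start, 6 in tube A and 1 at the end of parabola 1. This block used a single correlation for all probe sets (0.22, from tubes A and B alone). Single genes may differ more between tubes than it allows. With tubes A and B joined as a single stage, the count at the parabola 1 start was 1 (UGT73B2). Of the 11, 7 were UGT73 genes (UGT73B1 to UGT73B5, UGT73C7 and UGT73D1), and the others were UGT72E1, UGT76B1, UGT76E1 and UGT89B1. UGT73B2, UGT73B3, UGT73B4, UGT73B5, UGT73D1, UGT76B1 and UGT89B1 passed whichever of these 6 arrays was left out.

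**Figure D1:**
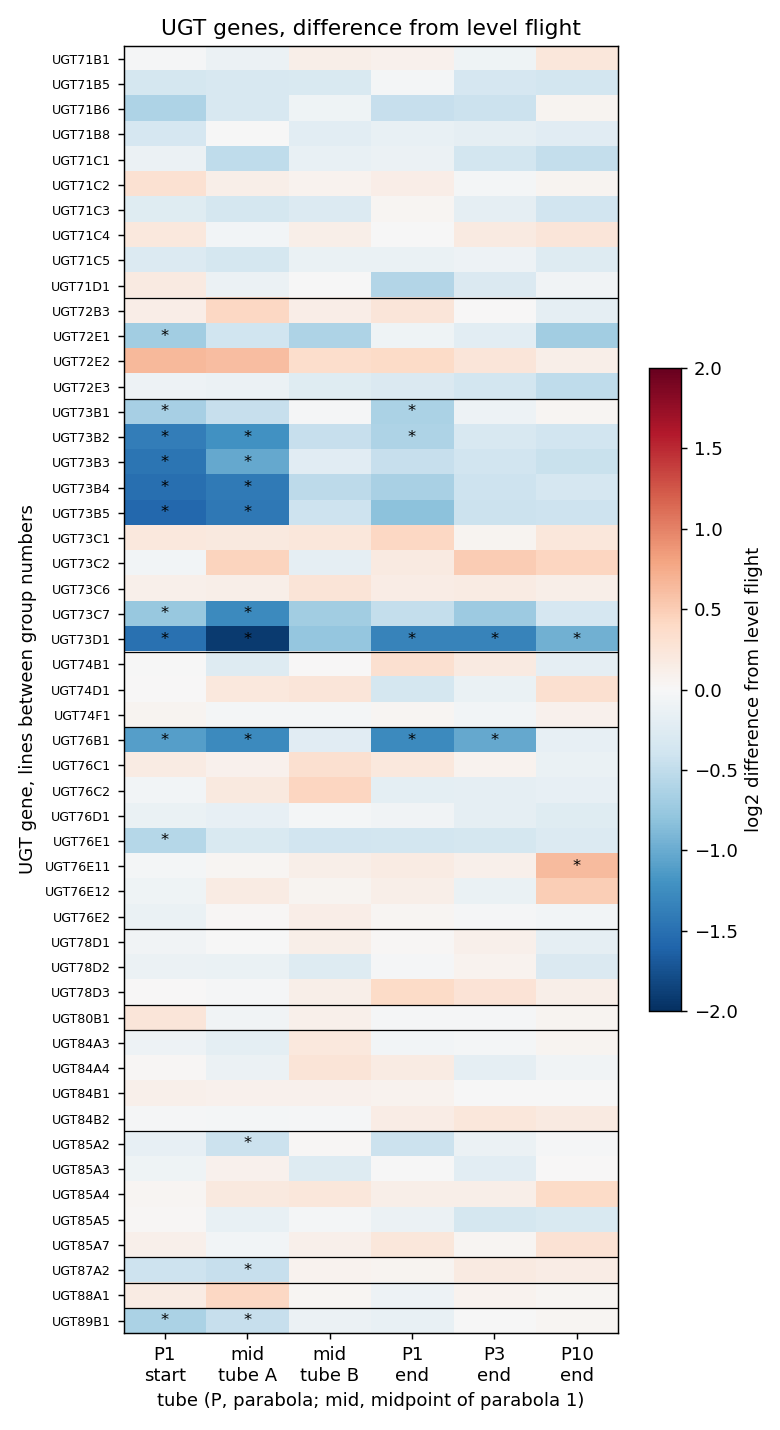
Log2 difference from level flight of each of the 51 UGT genes (rows, by family) in the 6 other tubes (columns, in flight order), as a difference of means of 3 arrays; a star marks an adjusted p below 0.05. The UGT73 rows hold 7 of the 11 stars at the parabola 1 start and 6 of the 10 in midpoint tube A, and tube B has none.

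At the parabola 1 start the largest falls were in UGT73B genes. UGT73B5, which with UGT73B3 is linked to resistance against the bacterium Pseudomonas syringae, had log2 values of 6.80, 6.49 and 6.49 at the parabola 1 start, 6.84, 6.03 and 7.33 in midpoint tube A and 8.08, 8.17 and 8.22 in level flight. In the remaining tubes UGT73B5 had 7.75, 7.96 and 7.51 (tube B), 7.60, 7.04 and 7.36 (end of parabola 1), 7.68, 8.02 and 7.46 (end of parabola 3) and 7.69, 7.89 and 7.65 (end of parabola 10). The level flight arrays were above every other array of this gene, and those of the parabola 1 start and tube A did not overlap with level flight. The difference was -1.56 ± 0.22 (SE) at the parabola 1 start, 2.96-fold lower (adjusted p = 0.000294, limma), and -1.42 ± 0.22 in tube A (adjusted p = 0.000463).

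UGT73B4, whose enzyme glucosylates breakdown products of the explosive TNT, is the chromosomal neighbour of UGT73B5. It had 6.84, 6.60 and 6.96 at the parabola 1 start, 6.87, 6.56 and 7.28 in tube A and 8.28, 8.41 and 8.25 in level flight. Tube B had 8.01, 8.09 and 7.27, and the ends of parabolas 1, 3 and 10 had 7.94, 7.59 and 7.47, then 7.77, 8.08 and 7.85, then 8.07, 8.01 and 7.85. As with its neighbour, no array of another tube reached the lowest one of level flight, and the parabola 1 start was the lowest tube along with tube A. UGT73B4 fell by 1.51 ± 0.19 at the parabola 1 start (2.85-fold, adjusted p = 8.34e-05) and by 1.41 ± 0.19 in tube A (adjusted p = 0.000127).

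UGT73B3, UGT73B2 and UGT73B1 lie next to each other in that order. UGT73B2, a flavonoid glucosyltransferase, had 3.96, 3.90 and 4.06 at the parabola 1 start, 4.12, 3.80 and 4.52 in tube A and 5.46, 5.20 and 5.41 in level flight. Its values were 5.01, 5.05 and 4.63 in tube B, 4.60, 4.65 and 4.94 at the end of parabola 1, 5.04, 5.13 and 4.95 at the end of parabola 3 and 5.00, 4.87 and 5.04 at the end of parabola 10. Level flight again stood above all other arrays, with the later ends between it and the parabola 1 start. The log2 difference was -1.38 ± 0.15 at the parabola 1 start (2.60-fold, adjusted p = 4.12e-05), -1.21 ± 0.15 in tube A (adjusted p = 5.63e-05) and -0.62 ± 0.15 at the end of parabola 1 (adjusted p = 0.0442). The last of these calls was lost when any of its 6 arrays but parabola 1 end replicate 3 was left out.

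UGT73B3 had 2.18, 2.10 and 2.06 at the parabola 1 start, 2.78, 2.11 and 2.78 in tube A and 3.48, 3.58 and 3.69 in level flight. Tube B had 3.15, 3.91 and 3.00, the end of parabola 1 had 3.66, 2.70 and 2.99, that of parabola 3 had 2.80, 3.65 and 3.14 and that of parabola 10 had 2.93, 3.36 and 3.12. Arrays of tube B and of the ends of parabolas 1 and 3 overlapped with level flight, while those of the parabola 1 start lay close together below every other tube but tube A. It fell 2.77-fold at the parabola 1 start (log2 difference -1.47 ± 0.25, adjusted p = 0.00117). In tube A the fall was 1.02 ± 0.25 (adjusted p = 0.0163), a call lost without level flight replicate 2 or 3 or tube A replicate 2.

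UGT73B1 had smaller differences from level flight. It had 7.51, 7.09 and 7.52 at the parabola 1 start, 7.49, 7.42 and 7.79 in tube A and 7.95, 7.99 and 8.15 in level flight. Tube B had 8.06, 7.78 and 8.17, and the ends of parabolas 1, 3 and 10 had 7.49, 7.36 and 7.35, then 7.92, 8.13 and 7.73, then 8.08, 8.31 and 7.81. The low tubes were the parabola 1 start, tube A and the end of parabola 1, and tube B overlapped with level flight. UGT73B1 differed by -0.66 ± 0.15 at the parabola 1 start (adjusted p = 0.0136) and by -0.63 ± 0.15 at the end of parabola 1 (adjusted p = 0.0412), and its -0.46 in tube A did not pass. The first call was lost without level flight replicate 3 or parabola 1 start replicate 2, and the second when any 1 of its 6 arrays was left out.

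UGT73D1 and UGT73C7, also neighbours, had their largest falls in tube A. UGT73D1 had 4.64, 4.86 and 5.09 at the parabola 1 start, 4.77, 3.79 and 4.74 in tube A and 6.33, 6.31 and 6.40 in level flight. It had 5.66, 5.86 and 5.19 in tube B, 4.91, 5.01 and 5.13 at the end of parabola 1, 4.98, 4.93 and 5.12 at the end of parabola 3 and 5.53, 5.25 and 5.38 at the end of parabola 10. All 18 arrays of the other tubes lay below the 3 of level flight. The fall in tube A was 3.77-fold (log2 difference -1.91 ± 0.20, adjusted p = 9.60e-06), the largest in size of any UGT gene in the 8 planned comparisons. Against level flight, UGT73D1 also fell at the parabola 1 start (-1.49, adjusted p = 0.000142) and at the ends of parabolas 1 (-1.33, 0.00158), 3 (-1.34, 0.00227) and 10 (-0.96, 0.0171), while its -0.78 in tube B had an adjusted p of 0.208. The call at the end of parabola 10 was lost when any of its 6 arrays but parabola 10 end replicate 1 was left out (adjusted p 0.0538 to 0.0882).

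UGT73C7, whose enzyme acts on phenylpropanoids, had 4.15, 4.23 and 4.05 at the parabola 1 start, 3.80, 3.06 and 4.03 in tube A and 4.97, 5.17 and 4.58 in level flight. In tube B it had 4.04, 4.42 and 4.18, and at the ends of parabolas 1, 3 and 10 it had 4.76, 4.19 and 4.33, then 4.37, 4.15 and 4.03, then 4.71, 4.47 and 4.55. Tube A was lowest, with its replicate 2 well below the other arrays. It fell 2.42-fold in tube A (log2 difference -1.27 ± 0.20, adjusted p = 0.000413). At the parabola 1 start the fall was 0.76 (adjusted p = 0.0309), a call lost when any of the 6 arrays but level flight replicate 3 was left out. The remaining UGT73 genes, UGT73C1, UGT73C2 and UGT73C6, had means of 2.08, 2.15 and 1.81, below the median of named probe sets, and passed in no comparison. The 7 UGT73 genes that passed lie in 3 runs of chromosomal neighbours. Such runs are common in the family, where 12 runs held 27 of the 51 measured UGT genes. UGT73C1 and UGT73C2, which did not pass, are neighbours too. The signal that near-identical neighbours may share on the array was not tested.

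**Figure D2:**
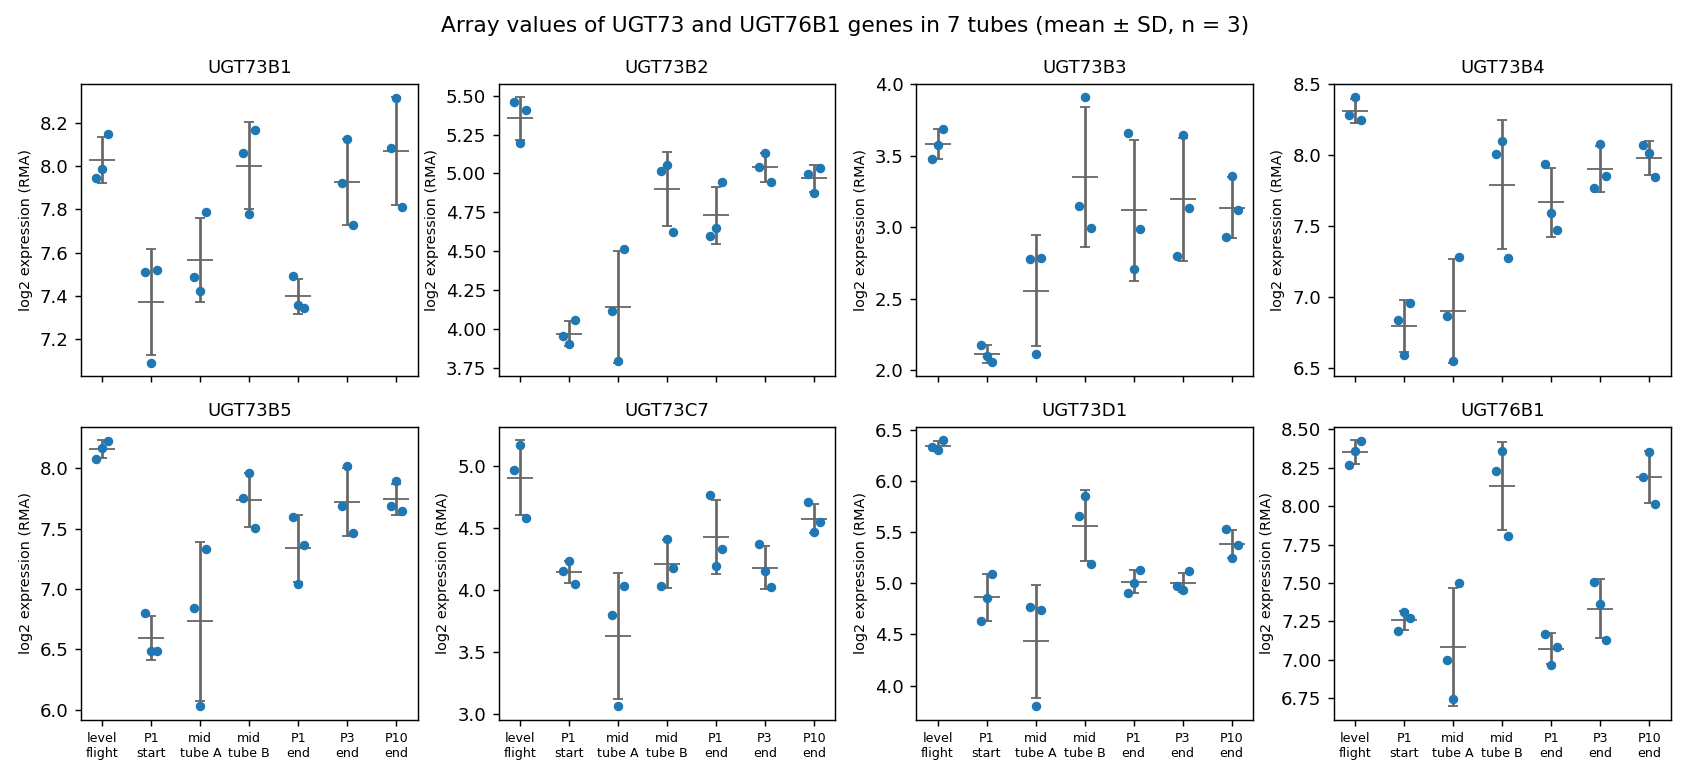
Log2 expression of 8 UGT genes in each of the 21 arrays (points), by tube in flight order from level flight; horizontal bars and whiskers are means ± SD of 3 arrays. UGT73B2, UGT73B4, UGT73B5 and UGT73D1 have their highest arrays in level flight, and UGT76B1 is low at the parabola 1 start, in tube A and at the ends of parabolas 1 and 3.

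UGT76B1 was the gene outside UGT73 with the largest fall. Its enzyme glucosylates isoleucic acid, salicylic acid and N-hydroxypipecolic acid, which act in defence. UGT76B1 had 7.19, 7.31 and 7.27 at the parabola 1 start, 7.001, 6.74 and 7.50 in tube A, 7.17, 6.97 and 7.09 at the end of parabola 1, 7.51, 7.36 and 7.13 at the end of parabola 3 and 8.27, 8.36 and 8.42 in level flight. Tubes close to level flight were tube B, with 8.23, 8.36 and 7.81, and the end of parabola 10, with 8.19, 8.36 and 8.02. The low tubes did not overlap with level flight, tube B or the end of parabola 10. The fall was 2.42-fold at the end of parabola 1 (log2 difference -1.28 ± 0.16, adjusted p = 0.000346), 1.27 in tube A (adjusted p = 6.61e-05), 1.09 at the parabola 1 start (adjusted p = 0.000398) and 1.02 at the end of parabola 3 (adjusted p = 0.00440). The call at the end of parabola 3 was lost without replicate 3 of that tube (adjusted p = 0.0548).

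Midway through parabola 1, tube A and tube B differed from each other. In tube A, 10 UGT genes fell against level flight and none rose (19.6%, against 5.14% of all named probe sets in either direction and 3.48% that fell). These were UGT73B2 to UGT73B5, UGT73C7, UGT73D1, UGT76B1, UGT85A2, UGT87A2 and UGT89B1, and the count was 6 without tube A replicate 2. In tube B no UGT gene passed in limma's fit, and 0.0458% of all named probe sets did. All 3 tube B arrays lay below all 3 of level flight in 8 of the 51 UGT genes, against 6.2% of all named probe sets, and above them in 3 (6.69%). Tube A against tube B gave 6 lower UGT genes and none higher (11.8%, against 1.4% of all named probe sets in either direction and 1.11% lower): UGT73B2 (-0.75 ± 0.15), UGT73B4 (-0.89 ± 0.19), UGT73B5 (-1.005 ± 0.22), UGT73D1 (-1.13 ± 0.20), UGT76B1 (-1.05 ± 0.16) and UGT87A2 (-0.54 ± 0.12). Their adjusted p-values ran from 0.00216 (UGT76B1) to 0.0258 (UGT73B5), and the arrays of UGT73B4 overlapped between the tubes. The count was 3 when replicate 1 of tube A was left out, 2 for its replicate 2, 2 for replicate 1 of tube B and 1 for replicate 2 of tube B. No UGT gene passed in this comparison with only the 6 arrays fitted or with the tube as a random block. The correlation used for that block (0.22) came from tubes A and B alone, so the block is no separate check of their difference. Tube A replicate 2 was the lowest tube A array in UGT73B2 to UGT73B5, UGT73C7, UGT73D1 and UGT76B1. UGT76B1 passed whichever of the 6 arrays was left out, and UGT73D1 was lost only without tube B replicate 2. Both tubes bear the label of the same stage.

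After the parabolas fewer UGT genes passed against level flight. At the end of parabola 1, 4 fell (UGT73B1, UGT73B2, UGT73D1 and UGT76B1) and none rose, which was 7.84%, against 1.14% of all named probe sets in either direction and 0.864% that fell. The count was 2 without level flight replicate 1, 2 or 3, or without parabola 1 end replicate 1 or 2, and 2 with only the 6 arrays fitted. At the end of parabola 3, 2 fell (UGT73D1 and UGT76B1; 3.92%, against 0.458% in either direction and 0.332% that fell), and 1 without replicate 3 of that tube. At the end of parabola 10, UGT73D1 fell and UGT76E11 rose (3.92%, against 1.45% in either direction, 0.475% that rose and 0.972% that fell), and the count was 0 or 1 when any 1 of the 6 arrays was left out and 4 with array weights. With the tube as random block, neither of the last 2 ends had a call. The median log2 difference from level flight of the 10 UGT73 genes was -1.07 at the parabola 1 start, -1.12 in tube A, -0.32 in tube B, and -0.55, -0.35 and -0.33 at the ends of parabolas 1, 3 and 10. For the other 41 UGT genes these medians lay between -0.075 and 0.041. All 6 comparisons share the level flight arrays.

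**Figure D3:**
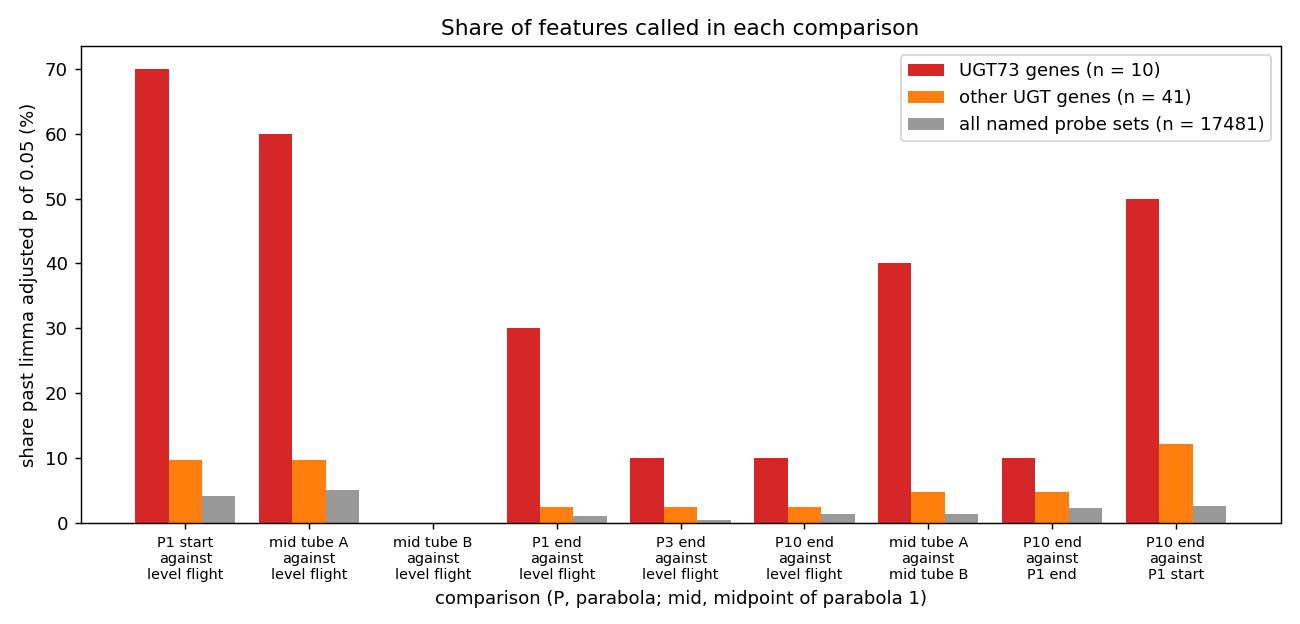
Share of genes or probe sets with an adjusted p below 0.05, in percent, in each of the 9 pairwise comparisons (columns), for the 10 UGT73 genes, the other 41 UGT genes and all 17481 named probe sets. UGT73 stands at 7 of 10 genes at the parabola 1 start and 6 of 10 in tube A, and all 3 bars are at or near 0 in tube B.

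The end of parabola 10 had higher UGT levels than the early stages in some genes. Against the end of parabola 1, 3 rose and none fell (5.88%, against 2.33% of all named probe sets in either direction and 1.31% that rose). These were UGT76B1 (1.11 ± 0.16, adjusted p = 0.000528), UGT73B1 (0.67 ± 0.15, 0.0167) and UGT74D1 (0.66 ± 0.13, 0.00738). Without parabola 10 end replicate 2, 1 gene passed (UGT76B1), and UGT73B1 was also lost without parabola 1 end replicate 2 or 3 or parabola 10 end replicate 1. In a comparison added after the data were seen, 10 UGT genes were higher at the end of parabola 10 than at the parabola 1 start and none lower (19.6%, against 2.65% in either direction and 1.52% higher). Of these, 5 were UGT73 genes, led by UGT73B4 (1.18 ± 0.19) and UGT73B5 (1.15 ± 0.22), with UGT73B3 (1.02), UGT73B2 (0.996) and UGT73B1 (0.70). The others were UGT76B1 (0.93), UGT76E11 (0.67), UGT89B1 (0.67), UGT76E12 (0.58) and UGT87A2 (0.56). The UGT76E12 call was lost whichever of the 6 arrays was left out (adjusted p 0.0502 to 0.124), and a second probe set of this gene differed by 0.10 (adjusted p = 0.865). The UGT73B3 call was lost when any of the 6 arrays but parabola 10 end replicate 1 was left out. The UGT73B1 call was lost without parabola 1 start replicate 2 or parabola 10 end replicate 2, and those of UGT76E11 and UGT87A2 without parabola 1 start replicate 1 or parabola 10 end replicate 2. The count was 6 without parabola 1 start replicate 1 and 5 without parabola 10 end replicate 2, and both this comparison and that with the end of parabola 1 had 1 call with the tube as a random block. UGT73D1 was 0.52 ± 0.20 in this comparison and did not pass.

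UGT74D1, whose enzyme glucosylates auxin and its oxidised form, had 5.48, 5.73 and 5.50 at the end of parabola 10, against 4.89, 4.97 and 4.86 at the end of parabola 1. Elsewhere it had 5.31, 5.26 and 5.20 (level flight), 5.39, 5.18 and 5.22 (parabola 1 start), 5.55, 5.59 and 5.25 (tube A), 5.35, 5.31 and 5.83 (tube B) and 5.25, 5.13 and 4.99 (end of parabola 3). The end of parabola 1 was the lowest tube, below every array of the others. A second, dimmer probe set of UGT74D1, with a mean of 2.66 against 5.30, differed by -0.26 where this one rose by 0.66, and was not called. UGT76E11 had 2.64, 2.99 and 2.65 at the end of parabola 10, against 2.25, 2.02 and 2.10 in level flight, a rise of 0.64 ± 0.15 (adjusted p = 0.0395) that was lost when any 1 of the 6 arrays was left out. It had 1.90, 2.20 and 2.16 at the parabola 1 start, 2.27, 2.16 and 2.04 in tube A, 1.98, 2.35 and 2.37 in tube B, 2.03, 2.66 and 2.19 at the end of parabola 1 and 2.10, 2.20 and 2.38 at the end of parabola 3. All of these are dim values, and replicate 2 of the parabola 1 end reached the range of the parabola 10 end.

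UGT89B1 had 4.28, 4.47 and 4.56 at the parabola 1 start, 4.51, 4.51 and 4.81 in tube A and 5.11, 4.90 and 5.20 in level flight. In tube B it had 5.04, 4.81 and 4.98, and at the ends of parabolas 1, 3 and 10 it had 4.78, 4.91 and 5.05, then 4.90, 5.07 and 5.20, then 4.96, 5.14 and 5.21. The parabola 1 start and tube A were the low tubes and overlapped with each other. UGT89B1 fell by 0.63 ± 0.12 at the parabola 1 start (adjusted p = 0.00394) and by 0.46 ± 0.12 in tube A (adjusted p = 0.0313). The tube A call was lost without level flight replicate 1 or 3 or tube A replicate 1 or 2.

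UGT72E1, which glucosylates coniferyl aldehyde on the way to lignin, had 3.61, 3.76 and 3.69 at the parabola 1 start, against 4.51, 4.57 and 4.07 in level flight. The difference was -0.69 ± 0.18 (adjusted p = 0.0289), and the call was lost when any of the 6 arrays but level flight replicate 3 was left out. The other tubes had 3.84, 4.02 and 4.09 (tube A), 3.82, 4.05 and 3.46 (tube B), 3.86, 4.63 and 4.39 (end of parabola 1), 4.30, 4.23 and 3.99 (end of parabola 3) and 3.82, 3.79 and 3.44 (end of parabola 10). The lowest arrays belonged to the end of parabola 10 and tube B as well as to the parabola 1 start. Differences from level flight were -0.70 at the end of parabola 10 and -0.61 in tube B, and neither passed in the main fit. At the end of parabola 10 UGT72E1 did pass with array weights, a variance trend with robust estimation, cyclic loess, a replicate block or brighter probe sets. UGT72E2, which acts on monolignols, had the largest positive difference of any UGT gene at the parabola 1 start, 0.65 ± 0.24 (adjusted p = 0.164), and was named after its values were seen.

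Smaller falls were found in 3 more genes. UGT76E1, an enzyme for jasmonate derivatives, differed by -0.57 ± 0.14 at the parabola 1 start (adjusted p = 0.0207). This call was lost without level flight replicate 2 or parabola 1 start replicate 1 or 3. The gene was dim, with a mean of 1.82 over all arrays, and did not pass the moderated F test (adjusted p = 0.163). UGT87A2 differed by -0.47 ± 0.12 in tube A (adjusted p = 0.0246) and UGT85A2 by -0.43 ± 0.12 (adjusted p = 0.0337). Both of these tube A calls were lost when any 1 level flight array, or tube A replicate 1 or 2, was left out.

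The calls came mostly from the brighter members. At the parabola 1 start, 10 of the 23 UGT genes above the median level of named probe sets passed, where 7.59% of all probe sets above it did. Below it, 1 of 28 passed (UGT76E1), where 0.744% of probe sets did. In tube A the counts were 10 of 23 (9.18% of all brighter probe sets) and 0 of 28 (1.1%). The number of arrays, 3 per tube, limits the precision, so a dim gene that did not pass is not shown to be unchanged.

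**Figure D4:**
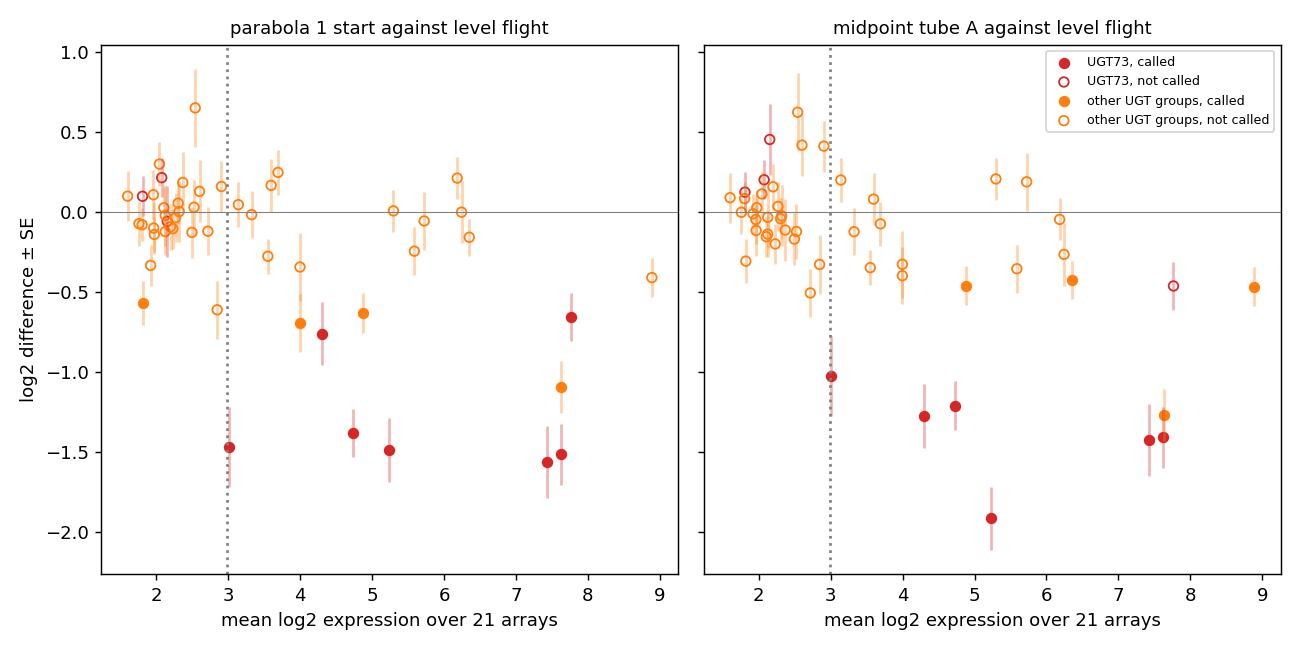
Log2 difference from level flight (vertical axis, with its SE) against mean log2 expression over 21 arrays (horizontal axis) for the 51 UGT genes at the parabola 1 start and in tube A; filled points have an adjusted p below 0.05 and the dotted line is the median of named probe sets, 2.99. Red UGT73 points fill most of the region below a difference of -1, and open points crowd at the dim end.

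At the parabola 1 start and in tube A, the medians of all other UGT families were closer to 0 than that of UGT73. At the parabola 1 start the median log2 difference was -0.18 over the 10 UGT71 genes (range -0.61 to 0.30) and -0.11 over the 8 UGT76 genes, while it was 0.0038 over the 4 UGT84 genes and -0.073 over the 3 UGT78 genes. In tube A the UGT71 median was -0.23, with 9 of 10 genes below 0 and none past the threshold in the main fit. UGT71C5 passed there only with brighter probe sets, a replicate block, cyclic loess or without level flight replicate 3. UGT71C1 did so only with array weights, cyclic loess or without tube A replicate 1. Across all 51 genes, 33 differences were below 0 at the parabola 1 start, 35 in tube A and 26 in tube B, where 48.4%, 46.9% and 48.4% of all named probe sets were.

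Genes that act on the same compounds were read from lists of non-UGT genes. The list for xenobiotic and oxylipin response held 35 genes, its glutathione transferases (GSTU and GSTF) taken from the measured genes alone, and 17 were measured. Of these, 2 fell at the parabola 1 start and none rose, where 2.76% of all named probe sets fell. These were AT4G01870, a xenobiotic-induced gene (-1.42), and GSTU25, a glutathione transferase (-1.18). In tube A 3 fell and none rose (3.48% of all named probe sets fell), with AT4G01870 at -1.22, GSTU25 at -1.21 and GSTU22 at -0.71. The median of the list was -0.11 in both comparisons, and no member passed in tube B or at the end of parabola 3. At the end of parabola 1, 1 member fell, GSTU22 (-0.75; 0.864% of all named probe sets fell). At the end of parabola 10, GSTU20 fell (-1.06) and AT3G04000, a reductase of reactive carbonyls, rose (1.00), where 0.972% of all named probe sets fell and 0.475% rose.

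Beta-glucosidases, which release the sugar from glucosides, were listed from the measured genes alone (22). Of these, 3 fell at the parabola 1 start, where 2.76% of all named probe sets fell. These were BGLU28 (-1.53), BGLU45 (-0.84) and BGLU46 (-0.57), the last pair being enzymes for monolignol glucosides. Tube A had BGLU28 lower (-1.39) and BGLU44 higher (0.71), where 5.14% of all named probe sets passed in either direction, and the list medians in these comparisons were 0.0082 and -0.032. At the end of parabola 1 only BGLU45 passed (-1.10), against 0.864% of all named probe sets that fell. GRX480, a glutaredoxin induced by salicylic acid, was 1 of 2 measured members of a list of 15 salicylic acid genes. It fell by 2.12 at the parabola 1 start and by 1.97 in tube A, where 2.76% and 3.48% of all named probe sets fell. The other measured member passed in neither comparison. Of 7 measured auxin inactivation genes (13 listed), 1 fell in each of 3 tubes: GH3.3, which conjugates auxin to amino acids, at the parabola 1 start (-1.18), the auxin oxidase gene AT1G14130 (DAO1) in tube A (-0.62) and GH3.17 at the end of parabola 10 (-0.92). In these comparisons 2.76%, 3.48% and 0.972% of all named probe sets fell. The lists for flavonoids (3 of 12 measured), cytokinin (2 of 19), abscisic acid (1 of 11), phenylpropanoids (1 of 14) and glucosinolates (1 of 16) held no gene that passed, and those for UDP-sugar supply and brassinosteroids were not analysed here.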

How the data were processed

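Roots of 7 tubes with 3 arrays each were measured on AraGene 1.0 ST arrays from 100 ng of total RNA. The values that the authors deposited are on a log2 scale; per the submitters' processing notes, RMA, oligo, limma and R 4.0.0 were used and TAIR10 is named. RMA equalises the distributions of the arrays, which hides any shift shared by most transcripts. All 38408 probe sets were read, and 17481 had at least 1 gene in the platform annotation, 16722 of them exactly 1. Of these, 16574 matched RefSeq (assembly TAIR10.1), which gave symbols and gene order.

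The named probe sets were fitted once by lmFit and eBayes of limma 3.58.1 (R 4.3.3, with the package data.table at version 1.17.8; two-sided tests), as 7 group means with 14 residual degrees of freedom and no filter. P-values were adjusted by Benjamini-Hochberg within each comparison, at a threshold of 0.05. The fit was tested on simulated data. Lists were described by counts and medians, with no set test. The members and lists were chosen with earlier results of these data known.

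UGT genes past the threshold in any of the 8 planned pairwise comparisons are named; the 12 with the largest differences get every array's value and the others their differences. The 5 brightest UGT genes and up to 3 passing genes per list with the smallest p are added. The alternatives tried were array weights, a variance trend with robust estimation, cyclic loess, a replicate block, the tube as a random block, only the arrays compared, brighter probe sets, all probe sets, the mean over a gene's probe sets and leaving out each array. The comparison of parabola 10 end with parabola 1 start and the fit of 6 stage means were added after seeing the data. Sequence features of the UGT genes were not analysed here.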

Additional observations from a re-analysis of the deposited data

Results flagged for a closer look

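In 3 comparisons between tubes, 12 UGT genes differed in their effect against level flight (limma test of the difference itself, adjusted p below 0.05). Tube A against tube B called 11.8% of the 51 UGT genes, where 1.4% of all named probe sets passed. For the end of parabola 10 these shares were 5.88% and 2.33% against the end of parabola 1, and 19.6% and 2.65% against the parabola 1 start. In midpoint tube A the log2 difference lay below that of midpoint tube B, fixed at the same stage, by -0.75 in UGT73B2, -0.89 in UGT73B4, -1.005 in UGT73B5, -1.13 in UGT73D1, -1.05 in UGT76B1 and -0.54 in UGT87A2. The end of parabola 10 lay above the end of parabola 1 by 0.67 in UGT73B1, 0.66 in UGT74D1 and 1.11 in UGT76B1. It lay above the start of parabola 1, in the comparison added after seeing the data, by 0.70 in UGT73B1, 0.996 in UGT73B2, 1.02 in UGT73B3, 1.18 in UGT73B4, 1.15 in UGT73B5, 0.93 in UGT76B1, 0.67 in UGT76E11, 0.58 in UGT76E12, 0.56 in UGT87A2 and 0.67 in UGT89B1. The UGT76E12 call was lost whichever of the 6 arrays was left out, and its second probe set differed by 0.10 (adjusted p = 0.865). Single outlying arrays were not tested for, since each tube has 3.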

How the results depend on the processing

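None of the 15 UGT gene differences recomputed under the alternatives (each named gene in 1 of its called comparisons) reversed, but all were chosen because they passed in these data. With 1 array left out, their calls held 61 times and were lost 29 times. With the tube as a random block 7 held and 8 were lost, and with 6 stage means 1 held and 10 were lost. Leaving out 1 array gave 8 to 10 called UGT genes at the parabola 1 start against level flight, 6 to 11 in tube A, 0 in tube B, 2 to 3 at the end of parabola 1, 1 to 2 at the end of parabola 3 and 0 to 1 at the end of parabola 10. It gave 1 to 8 for tube A against tube B, 1 to 4 for the end of parabola 10 against the end of parabola 1, 5 to 9 against the parabola 1 start and 12 to 15 among the 7 tubes. With only the 6 arrays compared, the end of parabola 1 had 2 and tube A against tube B 0, and with all probe sets the ends of parabolas 1 and 10 had 2 and 1. Array weights gave 4 at the end of parabola 10. The cause of these shifts was not tested. With a replicate block, the end of parabola 1 had 2, and the other counts stayed within 1.5 times. Deviations of same-numbered arrays had a mean correlation of 0.0084 (from -0.11 to 0.15), and 8 of 21 arrays correlated best with their own number. The main fit did not pair arrays by number, and whether same-numbered arrays shared a batch was not tested.

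When the tube was a random block (a correlation of 0.22 from tubes A and B alone), counts against level flight were 6 at the parabola 1 start, 6 in tube A, 1, 0 and 0 at the ends of parabolas 1, 3 and 10, 0 for tube A against tube B, and 1 each for the end of parabola 10 against the end and the start of parabola 1. With 6 stage means (added), the parabola 1 start kept 1 call (UGT73B2, adjusted p = 0.0397), and the ends of parabolas 1, 3 and 10 and both comparisons of the end of parabola 10 had 0.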
